A study of Mus musculus with 16 samples.

Results

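The dual specificity phosphatases that act on MAP kinases were followed in macrophages grown from mouse stem cells and exposed to heme bound to albumin or to lipopolysaccharide (LPS). The genes were Dusp1, Dusp2, Dusp3, Dusp4, Dusp5, Dusp6, Dusp7, Dusp8, Dusp14 and Dusp16, taken as every probe whose reference transcript belongs to one of them. That gave 10 genes and 13 probes, among 20659 gene symbols and 39429 probes on the array. Dusp3, Dusp8 and Dusp16 had 2 probes each and the other genes 1 probe each.

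RNA was hybridised to 16 Agilent two-colour arrays, 4 biological replicates (a to d) in each of 4 groups. The control group had no treatment and was taken at 0 h. The HemeAlb50 and HemeAlb200 groups received 50 µM and 200 µM heme-albumin for 8 h, and the LPS group received 10 ng/mL LPS for 8 h. Every array set its red (Cy5) sample against green (Cy3) RNA of untreated macrophages, and the control arrays carried untreated RNA in both colours. No untreated cells at 8 h and no cells given albumin alone were analysed here, so treatment, carrier and time in culture cannot be told apart, and neither the stem cells' origin nor the mouse strain is given in the labels. The series' title puts the question as whether heme triggers inflammation, and LPS is the bacterial stimulus set beside it.

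MAP kinases (ERK, JNK and p38) are switched on by phosphate on a threonine and a nearby tyrosine, and dual specificity phosphatases remove both. Dusp1, Dusp2, Dusp4 and Dusp5 encode nuclear enzymes that are induced by the signal they end, Dusp6 and Dusp7 cytoplasmic enzymes that prefer ERK, and Dusp8 and Dusp16 enzymes that prefer JNK and p38. Dusp3 and Dusp14 encode small atypical members without the domain that docks MAP kinases. In macrophages the family is known above all for Dusp1, which limits the cytokine response to bacterial products.

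Each of the 4 slides held 1 array of every group. Replicates a and b were scanned on 1 day and c and d on another. Each group kept 1 position on every slide, so position and group cannot be told apart. Between 49.9% and 59.4% of probes were well above background in red on an array, and correlations of log2 ratios between replicates of a group ran from 0.42 in the control group to 0.98 in the LPS group. The scanner software marked 8 of the 16 arrays for evaluation, 3 of them controls. All 11 measured genes of a 12-gene macrophage marker list were well above background on all 16 arrays. Their summed red level, in units of each array's 75th percentile, was 328 to 438 in control, 263 to 443 in HemeAlb50, 347 to 428 in HemeAlb200 and 348 to 686 in LPS. At a limma adjusted p under 0.05 and at least 2-fold, 5 of the 11 rose with LPS and none fell, while with HemeAlb200 none rose and 2 fell, Mertk (-1.04) and Fcgr1 (-1.58). Over all genes 14% rose and 16.7% fell with LPS, and 2.05% rose and 0.98% fell with HemeAlb200. Below 2-fold, Mertk (-0.97), Lyz2 (-0.75), Ctsd (-0.70), Csf1r (-0.63) and Tyrobp (-0.38) were lower with LPS, with limma adjusted p values from 3.36e-06 to 0.000223. The remaining marker, Itgam, was higher with LPS by 0.51 (limma adjusted p = 8.5e-07).

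LPS raised Dusp2, Dusp16, Dusp1 and Dusp5 and lowered Dusp3. A gene was called when its limma adjusted p was under 0.05 and its change at least 2-fold. Of the 9 phosphatase genes that could be tested, 4 rose and 1 fell against control. Dusp5 entered the test only through the LPS arrays, where it was high. Among genes well above background on all 16 arrays 3 phosphatase genes rose and 1 fell, beside 1413 and 1729 of all 11211 such genes. Over the whole array 30.7% of 12759 genes were called in this comparison, 14% higher and 16.7% lower. The median log2 change was 0.97 over the 9 genes and -0.089 over all genes. The 9 include Dusp5, so their median is a description, and it was not taken without that gene. Log2 ratios of control and LPS arrays did not overlap for 6 of the 9, a state reached by at least 70.3% of all genes. A gene with a value dropped as an outlier was counted as overlapping, so such shares of all genes are lower bounds. The phosphatase genes had no dropped value. The same 6 genes, Dusp4 added to the 5, had an adjusted p under 0.05 whatever the fold, beside 78.8% of all genes. In bulk RNA, fewer cells of a type and less RNA per cell cannot be told apart.

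**Figure D1:**
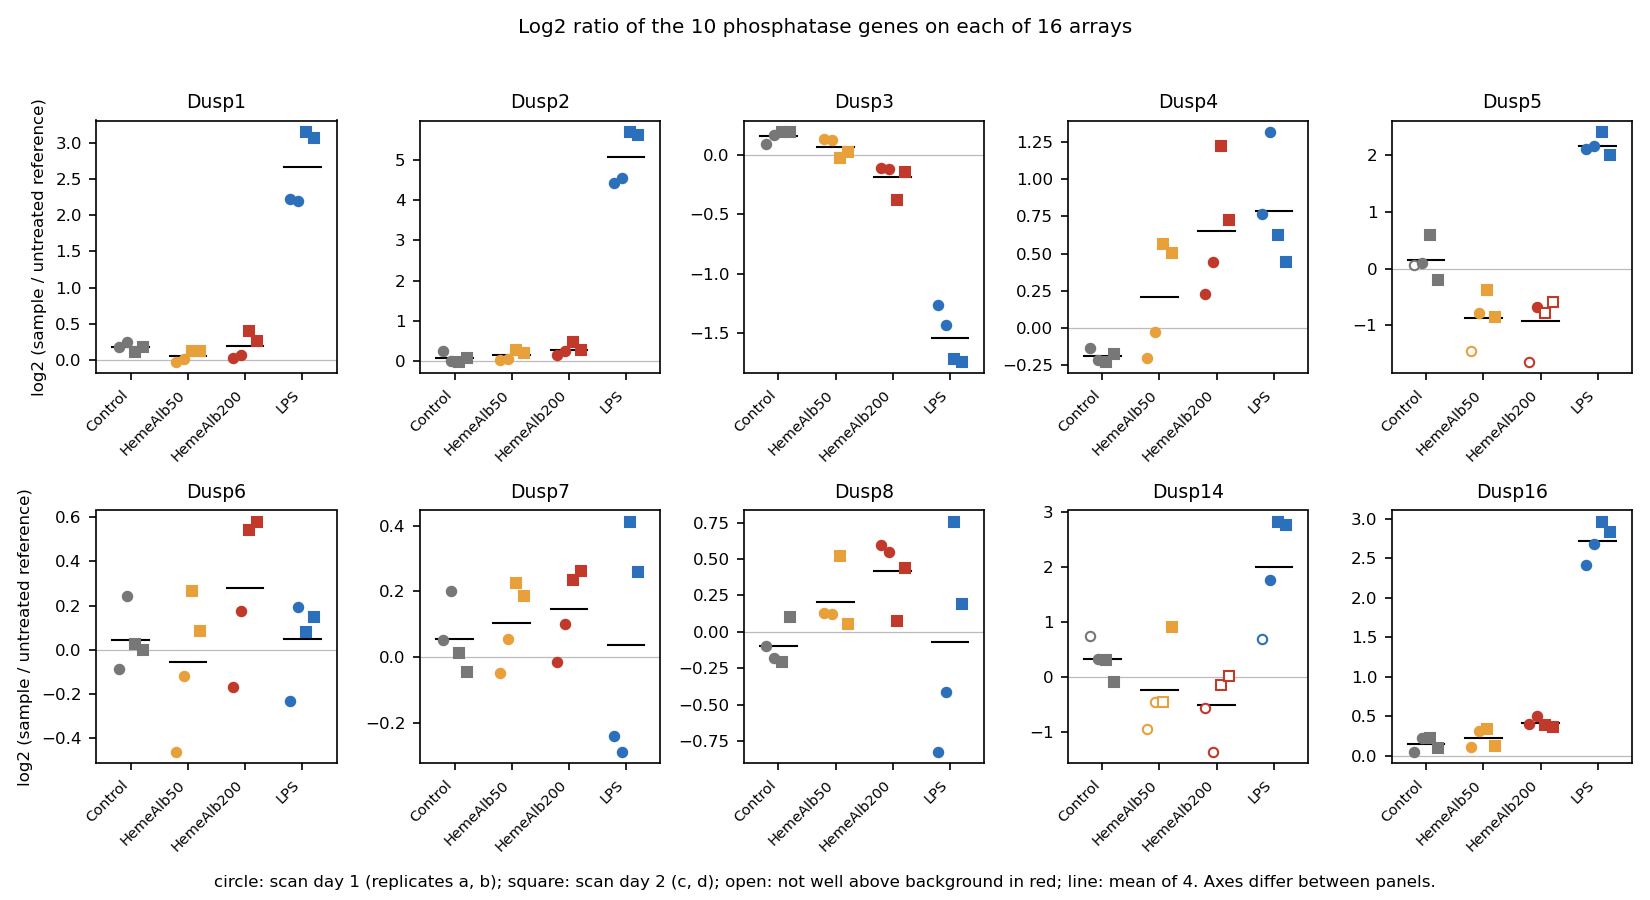
Log2 ratio of sample over untreated reference (vertical axes, which differ between panels) for the 10 phosphatase genes on each array, by group; circles are scan day 1, squares scan day 2, open symbols were not well above background in red, and lines are means of 4. The LPS arrays stand apart for Dusp1, Dusp2, Dusp3, Dusp5 and Dusp16, and squares lie above circles among the LPS arrays of Dusp1, Dusp2 and Dusp14.

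Dusp2, also called PAC-1, is an inducible nuclear phosphatase of leukocytes, and it changed most among the 9. Its log2 ratios on the control arrays a to d were 0.25, -0.0026, -0.016 and 0.074. On the LPS arrays they were 4.42, 4.56, 5.70 and 5.63, so every LPS array lay far above every control array. The change was 5.00 ± 0.23 (SE, log2), or 32.1-fold, with a limma adjusted p of 4.89e-11. It ranked 93 from the top of 12759 genes. Processed red signals went from 214 to 284 on the control arrays to 15901 to 88569 on the LPS arrays. These signals carry no scaling between arrays, whose median red signal was 19.6 to 23.5 for control and 49.8 to 58.7 for LPS, whereas the ratios were dye-normalised within each array.

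Dusp16 encodes a phosphatase that prefers JNK and p38. Its control arrays gave log2 ratios of 0.048, 0.22, 0.22 and 0.098 for replicates a to d. The LPS arrays gave 2.42, 2.68, 2.96 and 2.84, a tight group well clear of the rest. The log2 change was 2.58 ± 0.097 (SE), or 5.97-fold, with an adjusted p of 4.21e-12 from limma. The second Dusp16 probe changed by 2.99 ± 0.52 (SE, log2; adjusted p = 0.000107 over all probes that passed, by limma). That probe was well above background on all 4 LPS arrays but on only 1 array of each other group. Its red signals were 4.55 to 12.1 on control arrays. It was thus tested only because of the group in which it was high, and its change is a description rather than support.

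Dusp1 encodes MKP-1, an inducible nuclear phosphatase that acts on p38, JNK and ERK. Its log2 ratios were 0.18, 0.25, 0.11 and 0.17 on the control arrays. Under LPS they were 2.23, 2.19, 3.15 and 3.08, with replicates a and b well below c and d. The change was 2.48 ± 0.19 (SE, log2), or 5.60-fold, with a limma adjusted p of 1.01e-08. Red signals were already 2800 to 3690 on control arrays and reached 37037 to 83275 on LPS arrays.

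Dusp5 encodes a nuclear phosphatase that is selective for ERK. Its probe was dim, with red signals of 19.4 to 27.8 on control arrays, 3 of which were well above background, against 194 to 348 on LPS arrays. Control log2 ratios were 0.068, 0.10, 0.60 and -0.19. LPS arrays had ratios of 2.11, 2.15, 2.40 and 1.99, close together and above all other arrays. The log2 change was 2.02 ± 0.25 (SE), or 4.06-fold, with an adjusted p of 2.71e-06 from limma. LPS was the only group with this probe well above background on all 4 arrays, so it was tested only because of the group in which it was high, and its call is a description rather than support. Under normexp background correction of the median signals the Dusp5 change was 0.998, just short of 2-fold, with a limma adjusted p of 2.12e-08.

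The promoters of the members that rose with LPS were read because these genes moved together, and that of Dusp8, which was not called, because it holds the same cyclic AMP response element (CRE) as Dusp1. The stretches come from the 250 bases before the start of each gene in RefSeq's mouse build GRCm38.p6, which holds 9 of the 10 members (Dusp4 is not among them). They are written 5′ to 3′ on the gene's strand, with CRE, E-box and CArG box in capitals, and for Dusp16, which has none of these, the GC boxes. The Dusp1 stretch is chr17:26508578-26508630 (minus strand), Dusp2 chr2:127336035-127336070 (plus), Dusp5 chr19:53529048-53529097 (plus), Dusp16 chr6:134792747-134792839 (minus) and Dusp8 chr7:142095325-142095406 (minus).
Dusp1: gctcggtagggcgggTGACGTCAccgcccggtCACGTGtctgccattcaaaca
Dusp2: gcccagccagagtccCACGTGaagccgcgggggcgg
Dusp5: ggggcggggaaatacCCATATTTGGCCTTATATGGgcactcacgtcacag
Dusp16: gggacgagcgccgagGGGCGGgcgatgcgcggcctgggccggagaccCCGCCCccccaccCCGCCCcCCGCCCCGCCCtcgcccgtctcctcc
Dusp8: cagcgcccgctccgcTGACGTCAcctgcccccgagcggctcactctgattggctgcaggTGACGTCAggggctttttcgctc

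The promoters of the 4 raised genes did not share 1 of these elements apart from the GC box. The CRE, TGACGTCA, the site of CREB and ATF factors, stood in 2 of the 9 promoters, with 1 copy in Dusp1 and 2 in Dusp8. It occurred in 1.55% of all 32851 promoter windows of that length. The E-box CACGTG stood in Dusp1 and Dusp2, against 6.02% of all windows. The CArG box, the site of serum response factor, stood only in Dusp5, as a pair with no base between them, against 1.47% of all windows.

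The GC box GGGCGG, on either strand, was in 7 of the 9 promoters and in 32.7% of all windows. Dusp16 held 5 copies, of which the last pair overlap by their end base. The AP-1 site TGANTCA and the NF-kB site were in none of the 9 and in 6.75% and 7.25% of all windows. These matches describe letters within 250 bases of the start, and binding was not measured. The part of any of these elements in the LPS changes was not tested.

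Dusp3 encodes VHR, an atypical phosphatase of ERK and JNK, and was the member that fell with LPS. Its log2 ratios were 0.092, 0.17, 0.19 and 0.19 on control arrays. LPS arrays gave -1.26, -1.43, -1.72 and -1.74, below every other array of the series. The log2 ratio fell by 1.70 ± 0.097 (SE), which is 3.24-fold lower, with a limma adjusted p of 4.74e-10. The second Dusp3 probe moved less: its change was -0.56 ± 0.12 (SE, log2), with a limma adjusted p of 0.000878, under 2-fold and not called. Its LPS ratios of -0.37, -0.47, -0.45 and -0.68 still lay below all control ratios, which were -0.065 to 0.18. With the median of a gene's probes in place of the brightest, the Dusp3 change with LPS was -1.13, also called.

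**Figure D2:**
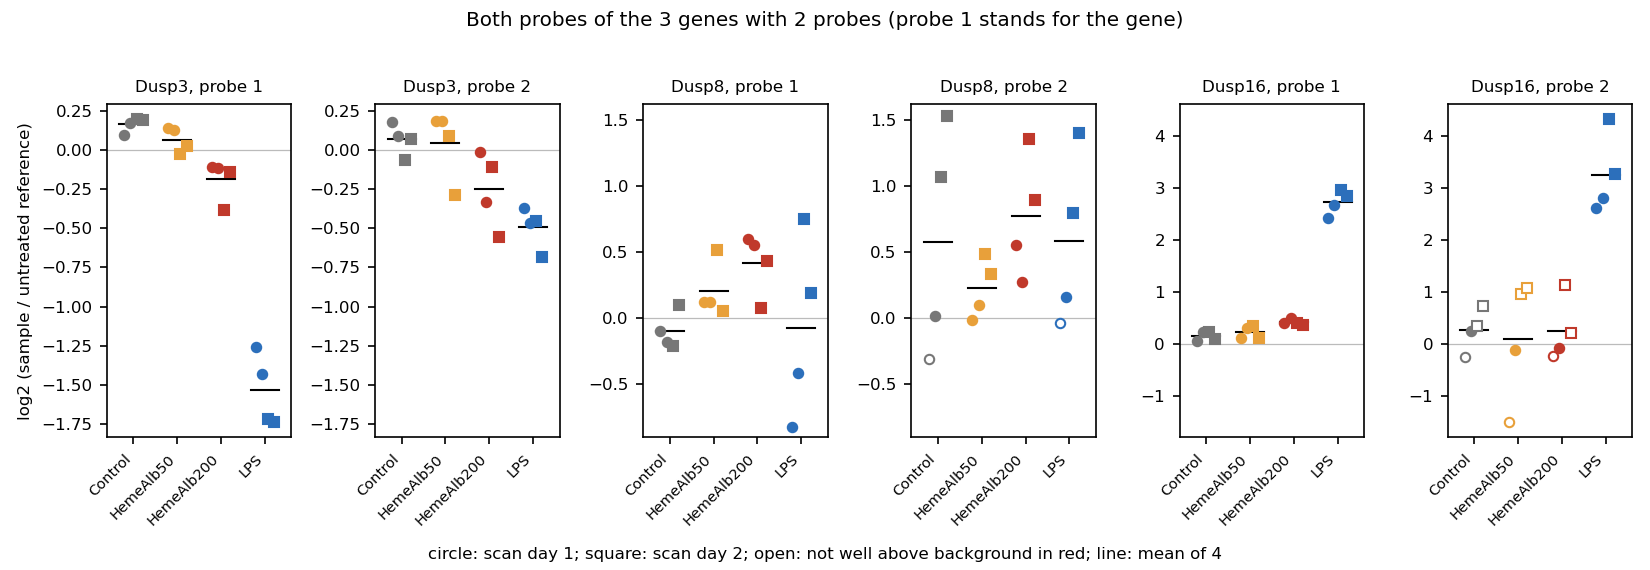
Log2 ratio of sample over untreated reference (vertical axes, shared within a gene) for both probes of Dusp3, Dusp8 and Dusp16, by group; symbols as for the plot of the 10 genes. With LPS, probe 2 of Dusp3 changes by -0.56 where probe 1 changes by -1.70, while both probes of Dusp16 rise. Probe 2 of Dusp16 passed the filter only through the LPS arrays.

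Dusp4, Dusp6, Dusp7 and Dusp8 were not called with LPS. Dusp4, an inducible nuclear phosphatase also known as MKP-2, came nearest. Its log2 ratios were -0.14, -0.21, -0.23 and -0.18 on control arrays and 0.77, 1.31, 0.63 and 0.44 on LPS arrays, with no overlap. The change was 0.97 ± 0.23 (SE, log2), or 1.96-fold, with a limma adjusted p of 0.00111. It passed 2-fold without LPS replicate c (1.03) or d (1.09), on scan day 1 alone (1.21), and with each array centred on its median (1.07).

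Dusp6, which encodes the ERK-selective cytoplasmic phosphatase MKP-3 and is a classic ERK feedback gene, changed by 0.0030 with LPS (95% interval -0.37 to 0.38). The interval for Dusp7, its close relative, was -0.31 to 0.27 around -0.019. For Dusp8, which prefers JNK and p38, it was -0.52 to 0.57 around 0.024. All of these intervals lie inside 2-fold. The Dusp8 probe was dim, with red signals of 21.6 to 56.0 on control and 62.1 to 91.4 on LPS arrays, though all were well above background. The second Dusp8 probe was dimmer, at 12.0 to 16.5 and 27.3 to 76.1. Its LPS change was 0.0059 (95% interval -0.84 to 0.85). Dusp6 log2 ratios ran from -0.086 to 0.24 on control arrays and from -0.23 to 0.19 on LPS arrays, so the groups overlapped.

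Dusp14 could not be tested because no group had all 4 arrays well above background. Its control log2 ratios were 0.74, 0.33, 0.30 and -0.088, with replicate a not well above background. LPS arrays gave 0.68, 1.75, 2.81 and 2.75, again with replicate a not well above background. Red signals were 11.3 to 16.2 on control arrays and 44.7 to 191 on LPS arrays. Fitted without the filter on dim probes, over 20659 genes, the log2 change was 1.68 ± 0.50 (SE), with a limma adjusted p of 0.0115. None of the 4 HemeAlb200 arrays was well above background for Dusp14. The LPS level was at least 3.94-fold higher than the HemeAlb200 level, as a bound against the lowest signal well above background, with 3 of 4 LPS arrays measured.

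**Figure D3:**
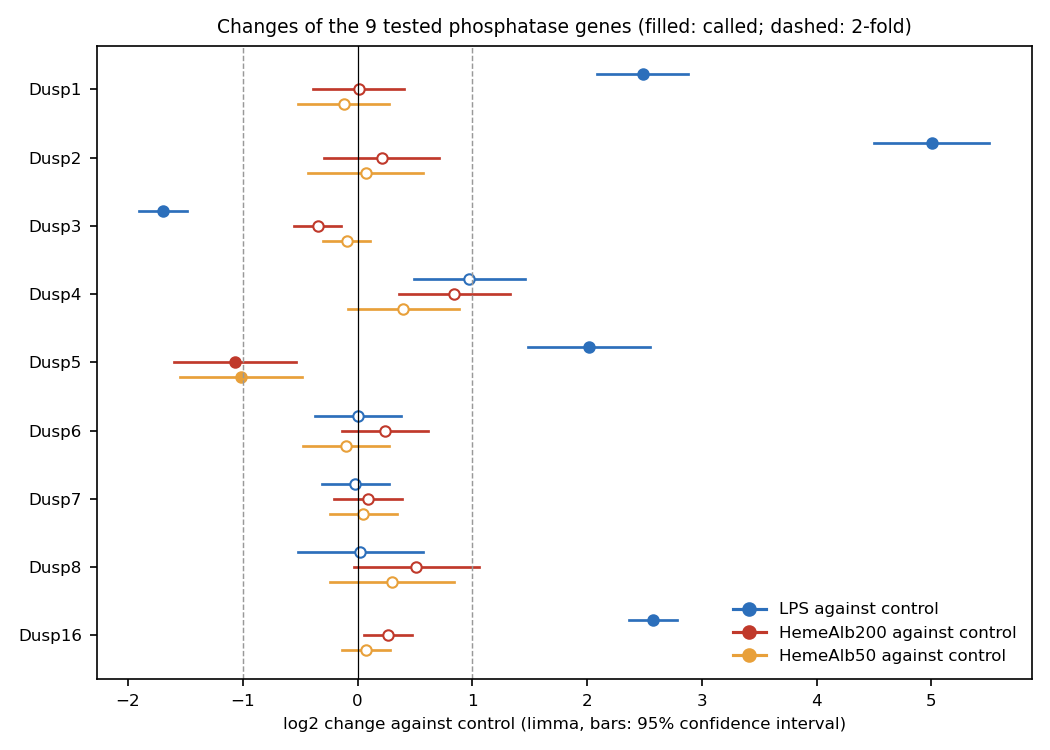
Log2 change against control (horizontal axis) of the 9 tested phosphatase genes (vertical axis) with 95% confidence intervals, for LPS, HemeAlb200 and HemeAlb50; filled points were called and dashed lines mark 2-fold. Dusp2 lies at 5.00 with LPS, and Dusp5 is the only gene with filled points for heme-albumin, at -1.07 and -1.01.

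The size of the LPS change differed between scan days for 5 of the 9 genes at a limma adjusted p under 0.05, a share reached by 33.6% of all genes. Dusp1 changed by 2.00 (log2) on scan day 1 and 2.97 on scan day 2, a difference of 0.98 ± 0.080 (SE; limma adjusted p = 2.42e-05). Dusp2 changed by 4.37 and 5.64 on the same days (difference 1.27 ± 0.13, SE; limma adjusted p = 7.53e-05). Dusp3 changed by -1.47 and -1.92 (limma adjusted p of the difference 0.0097). In each of these the direction and the call held on both days.

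Dusp7 and Dusp8 turned direction between the days. Dusp7 changed by -0.39 on scan day 1 and 0.35 on scan day 2 (limma adjusted p of the difference 0.000382). Its LPS ratios on arrays a to d were -0.24, -0.29, 0.41 and 0.26, and those of Dusp8 were -0.82, -0.41, 0.75 and 0.19. Dusp8 changed by -0.48 and 0.53 (limma adjusted p of the difference 0.0294), so that the values near 0 over all arrays are means of opposite ones. For Dusp4, Dusp5, Dusp6 and Dusp16 the difference between days had limma adjusted p values of 0.186, 0.95, 0.565 and 0.136. Scan day went with the replicate letter, and with the form of the tag that ends the sample titles, so scan and culture cannot be told apart. With HemeAlb200 and with HemeAlb50 none of the 9 differed between scan days by limma at that threshold, beside 0.00784% and 0% of all genes. Without adjustment 4 of the 9 had a p under 0.05 in each, beside 11.8% of all genes for HemeAlb200 and 5.68% for HemeAlb50.

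Neither dose of heme-albumin raised a phosphatase gene past the threshold, and Dusp5 was the gene called at both, in the lower direction. With 200 µM heme-albumin 1 of 9 genes was called, where 3.03% of all genes were, 2.05% higher and 0.98% lower. With 50 µM it was also 1 of 9, where 0.368% of all genes were called, 0.29% higher and 0.0784% lower. Dusp5 was also the gene of the 9 with an adjusted p under 0.05 whatever the fold at 50 µM, beside 3.52% of all genes. It was the gene without overlap too, beside at least 18.6% of all genes. The median change of the 9 genes was 0.21 at 200 µM and 0.050 at 50 µM (log2), beside -0.022 and -0.012 over all genes. All comparisons against control use the same 4 control arrays, so they are not independent of each other.

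Dusp5 log2 ratios were -1.64, -0.68, -0.78 and -0.59 on the HemeAlb200 arrays a to d. On the HemeAlb50 arrays they were -1.46, -0.79, -0.38 and -0.85. All 8 lay below the 4 control ratios of -0.19 to 0.60. The log2 ratio fell by 1.07 ± 0.25 (SE; limma adjusted p = 0.00612) at 200 µM, and by 1.01 ± 0.25 (SE; limma adjusted p = 0.0356) at 50 µM.

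The probe of Dusp5 was well above background on 1 of the 4 HemeAlb200 arrays and on 3 of the 4 HemeAlb50 arrays, with red signals of 9.64 to 17.6 and 11.4 to 15.7. The call at 200 µM was lost without control replicate c (-0.91) and without HemeAlb200 replicate a (-0.83). It was lost too under normexp correction (-0.053), without background subtraction (-0.26), on scan day 1 alone (-1.24, adjusted p = 0.0514 from limma) and on scan day 2 alone (-0.89). The call at 50 µM was lost without control replicate a (-1.04), b (-1.03) or c (-0.86) and without HemeAlb50 replicate a (-0.82), b (-1.04) or d (-1.02), as well as under normexp correction (-0.17) and on scan day 1 (-1.21) or 2 (-0.82) alone. The difference between the doses was -0.052 (95% interval -0.58 to 0.48).

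Dusp4 and Dusp3 differed from control at 200 µM by less than 2-fold. Dusp4 log2 ratios were 0.23, 0.44, 1.22 and 0.72 on HemeAlb200 arrays, above all 4 control ratios. The change was 0.84 ± 0.23 (SE, log2; limma adjusted p = 0.0145), and on scan day 2 alone it was 1.17 and called. On HemeAlb50 arrays the Dusp4 ratios were -0.20, -0.027, 0.56 and 0.50, a change of 0.40 with a limma adjusted p of 0.486. The order of mean levels of Dusp4 was LPS (0.79), HemeAlb200 (0.65), HemeAlb50 (0.21) and control (-0.19). Each neighbouring pair in that order overlapped.

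Dusp3 ratios on HemeAlb200 arrays were -0.11, -0.11, -0.38 and -0.14, below all control and all HemeAlb50 ratios and above all LPS ratios. The log2 ratio fell by 0.35 ± 0.097 (SE; limma adjusted p = 0.0178). Its second probe fell by 0.32, with a limma adjusted p of 0.0928. At adjusted p under 0.05 whatever the fold, 3 of the 9 genes passed at 200 µM (Dusp3, Dusp4 and Dusp5), beside 22.8% of all genes. Ratios did not overlap with control for 4 of the 9, beside at least 34.9% of all genes. Dusp16 was the fourth, with ratios of 0.36 to 0.50 and a change of 0.26 (limma adjusted p = 0.0659).

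Dusp1 and Dusp2, the inducible genes that LPS moved most among the nuclear enzymes, were not called with heme-albumin. Dusp1 ratios were 0.024, 0.060, 0.40 and 0.26 on HemeAlb200 arrays, a change of 0.0084 (95% interval -0.39 to 0.41). Dusp2 ratios were 0.15, 0.25, 0.46 and 0.28, a change of 0.21 (interval -0.29 to 0.71). At 50 µM the changes were -0.12 (interval -0.52 to 0.28) for Dusp1 and 0.069 (interval -0.43 to 0.57) for Dusp2. These intervals exclude a 2-fold change in either direction. They use the spread shared with the LPS arrays, whose SD was 0.52 for Dusp1 and 0.68 for Dusp2. The other groups had SDs of 0.059 to 0.18 for Dusp1 and 0.12 to 0.13 for Dusp2.

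Dusp6, Dusp7 and Dusp8 were not called at either dose. At 200 µM Dusp6 changed by 0.24 (interval -0.14 to 0.61), Dusp7 by 0.092 (interval -0.20 to 0.38) and Dusp8 by 0.51 (interval -0.032 to 1.05). The Dusp8 interval reaches past 2-fold. All intervals rest on 1 spread shared by the 4 groups, LPS included. The SD of Dusp8 log2 ratios was 0.69 on LPS arrays, 0.14 on control and 0.24 on HemeAlb200 arrays. The HemeAlb200 ratios of Dusp8 were 0.60, 0.55, 0.076 and 0.44, and its control ratios -0.097, -0.18, -0.21 and 0.0999, so the groups overlapped by 1 array. The second Dusp8 probe changed by 0.19 (interval -0.65 to 1.04) at 200 µM. At 50 µM it changed by -0.35 (interval -1.19 to 0.49), where the first probe changed by 0.30 (interval -0.24 to 0.84).

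Between the doses, 200 µM against 50 µM, none of the 9 genes was called by limma, where 0.831% of all genes were, 0.635% higher and 0.196% lower. Without adjustment 1 of the 9 had a p under 0.05, Dusp3. Its difference, 200 µM minus 50 µM, was -0.25 (log2, interval -0.46 to -0.044; limma adjusted p = 0.148), with no overlap of the groups. Dusp16 did not overlap either, with a difference of 0.19 (limma adjusted p = 0.303), so that 2 of 9 did not, beside at least 20.9% of all genes. Dusp4 was 0.44 higher (interval -0.040 to 0.93; limma adjusted p = 0.306) and Dusp6 0.34 higher (interval -0.035 to 0.71; limma adjusted p = 0.314), both with overlap. This fit did not pair arrays by replicate letter. Dusp6 ratios a to d were -0.17, 0.17, 0.54 and 0.58 at 200 µM and -0.46, -0.12, 0.26 and 0.086 at 50 µM. Within every letter Dusp4 and Dusp6 were higher at 200 µM, as were Dusp1, Dusp2, Dusp7 and Dusp16. Dusp3 was lower in every letter, and Dusp5 and Dusp8 were mixed. How many of all genes do so was not counted, so this tally is a description. Same-letter deviations of these groups correlated at 0.37 to 0.50. With the replicate as a block none of the 9 was called by limma, where 95 of 12759 genes were higher and 26 lower.

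Set directly against LPS, both heme-albumin groups differed in the same 5 genes. The log2 difference of HemeAlb200 minus LPS was -4.79 for Dusp2, -3.09 for Dusp5, -2.48 for Dusp1, -2.31 for Dusp16 and 1.35 for Dusp3 (limma adjusted p from 1.56e-11 to 2.47e-08). That is 5 of 9 called, where 30.3% of all genes were, 16.8% higher and 13.6% lower. HemeAlb50 minus LPS was -4.93 for Dusp2, -3.03 for Dusp5, -2.60 for Dusp1, -2.50 for Dusp16 and 1.60 for Dusp3, where 30.6% of all genes were called, 16.7% higher and 13.9% lower. Dusp5 was well above background on 1 of 4 HemeAlb200 and 3 of 4 HemeAlb50 arrays, so the size of its differences from LPS rests on signals near background. It was tested only through the LPS arrays, where it was high, so its calls against LPS are a description rather than support. Among genes well above background on all 16 arrays, which leaves Dusp5 out, 1 phosphatase gene was higher and 3 lower than in LPS at either dose. Of all 11211 such genes 1713 were higher and 1362 lower for HemeAlb200, and 1707 and 1395 for HemeAlb50. Over the alternatives the Dusp5 difference ran from -3.45 to -1.05 for HemeAlb200 and from -3.32 to -1.17 for HemeAlb50, with the smallest sizes under normexp correction. With the median of all its probes, Dusp3 was 0.79 higher in HemeAlb200 than in LPS, which is short of 2-fold. The Dusp4 difference was -0.13 (interval -0.62 to 0.35) for HemeAlb200 against LPS and -0.58 (limma adjusted p = 0.0296, under 2-fold) for HemeAlb50 against LPS.

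Levels of other genes that move with the phosphatases across the 16 arrays are given as a description, since the 16 points share their arrays and groups. Between 1270 and 1686 genes passed r = 0.95 with each of Dusp1, Dusp2, Dusp3 and Dusp16. Dusp2 was closest to Xkr8 (Pearson r = 0.998), a phospholipid scramblase, and Myd88 (0.998), the adaptor of most Toll-like receptors. Dusp1 was closest to H3f3b (0.997), a histone gene, and Ifi208 (0.997), an interferon-inducible gene. Dusp16 was closest to Nod2 (0.996), a sensor of bacterial cell wall, and Treml2 (0.996). Dusp3 was closest to Gcdh (0.998), an enzyme of lysine breakdown, and Frat1 (0.997). Dusp5 had 54 genes above r = 0.95, led by Rgcc, a cell cycle regulator, and Rab5c, an endosomal GTPase.

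The rest of the MAP kinase pathway was read from 11 gene lists, with 106 of 126 listed genes tested. LPS raised 17 and lowered 18 of the 106, beside 14% and 16.7% of all genes, so the shares were near those of the whole array. The same shares of all genes stand beside the LPS counts of the single lists below. HemeAlb200 raised 3 and lowered 3, beside 2.05% and 0.98% of all genes, and HemeAlb50 moved none by limma's adjusted p and fold, beside 0.368%. On scan day 1 alone LPS raised 12 and lowered 16, and on scan day 2 alone it raised 21 and lowered 21. Under normexp correction the counts were 12 and 13 for LPS and 0 and 1 for HemeAlb200.

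**Figure D4:**
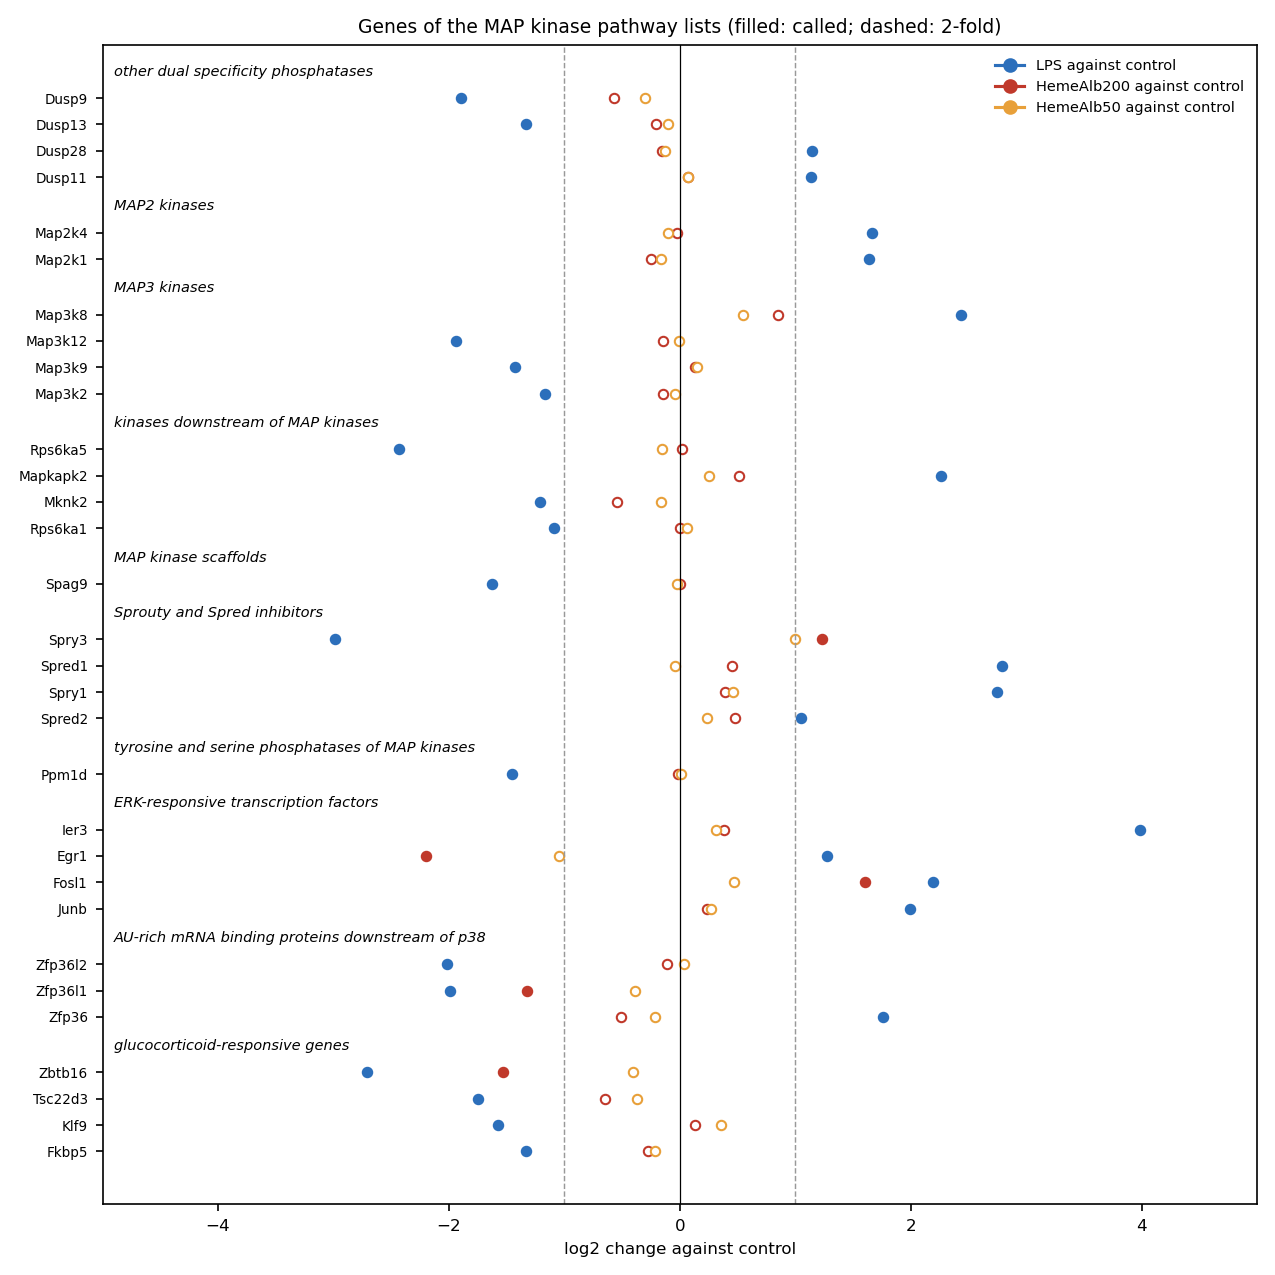
Log2 change against control (horizontal axis) of the leading genes of each MAP kinase pathway list (vertical axis, grouped by list) for LPS, HemeAlb200 and HemeAlb50; filled points were called and dashed lines mark 2-fold. LPS values reach from -2.98 (Spry3) to 3.98 (Ier3), and the filled HemeAlb200 points are Spry3, Egr1, Fosl1, Zfp36l1 and Zbtb16.

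Among the kinases, none of the 9 tested MAP kinases was called with LPS, and their median change was 0.15. Of 6 MAP2 kinases, Map2k4 (1.66 ± 0.16, SE, log2), which activates JNK, and Map2k1 (1.64 ± 0.094), which activates ERK, rose. Of 20 MAP3 kinases, 1 rose and 4 fell. Map3k8 (Tpl2), which links LPS to ERK in macrophages, rose by 2.44 ± 0.22, with ratios of 2.12 and 2.07 on scan day 1 and 3.17 and 3.14 on scan day 2. Map3k12, Map3k9 and Map3k2 changed by -1.94, -1.43 and -1.17, and Map3k1, named after its value was seen, by -1.09. The Map3k2 call was lost with the median of its probes (-0.23), and the calls of Map3k12 (-0.75) and Map3k1 (-0.9997) under normexp correction. With HemeAlb200 Map3k8 changed by 0.85 (limma adjusted p = 0.0116), and on scan day 1 alone by 1.04, which was called.

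Downstream, 2 of 10 kinases rose and 3 fell with LPS. Mapkapk2, the p38-driven kinase that supports cytokine mRNA, rose by 2.27 ± 0.080 (SE, log2; limma adjusted p = 2.2e-12). Its ratios were -0.24 to -0.16 on control, 0.033 to 0.061 on HemeAlb50, 0.26 to 0.36 on HemeAlb200 and 1.84 to 2.26 on LPS arrays, so that no pair of groups overlapped. The HemeAlb200 change of Mapkapk2, 0.52 with a limma adjusted p of 0.000298, was under 2-fold. Rps6ka5 (MSK1), a nuclear kinase of histone H3 and CREB, fell by 2.43 ± 0.11 (SE). Mknk2 changed by -1.21 and Rps6ka1 by -1.09, and Rps6ka3, named after its value was seen, by 1.09. Without LPS replicate c or d the Rps6ka1 change was -0.98, short of 2-fold. On scan day 1 alone Rps6ka1 (-0.77), Mknk2 (-0.95) and Rps6ka3 (0.89) were all short of it.

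Other inhibitors of the pathway moved in both directions with LPS. Of 4 tested Sprouty and Spred genes, which restrain Ras and Raf, Spred1 rose by 2.79 ± 0.30 (SE, log2) and Spred2 by 1.05 ± 0.25. Spred2 fell short of 2-fold without control replicate c (0.98) or LPS replicates a (0.94) or b (0.999). Spry1 rose, but from no control array well above background, so the LPS level was at least 2.13-fold higher. Spry3 fell, and none of its LPS arrays was well above background, so its control level was at least 3.50-fold higher. Under normexp correction Spred2 (0.53), Spry1 (0.65) and Spry3 (-0.997) were short of 2-fold.

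Spry3 was the Sprouty gene called with HemeAlb200, at 1.23 ± 0.35 (SE, log2; limma adjusted p = 0.0185). Its ratios were 1.11 to 1.51 on HemeAlb200 and 0.88 to 1.14 on HemeAlb50 arrays, above the control range of -0.18 to 0.24. That call was lost without control replicate b (1.17, limma adjusted p = 0.0504) or HemeAlb200 replicate d (1.15, limma adjusted p = 0.0511), and under normexp correction (0.22).

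Of 11 tested dual specificity phosphatases outside the 10, Dusp28 (1.15) and Dusp11 (1.13), an RNA phosphatase, rose with LPS. Dusp9, an ERK phosphatase related to Dusp6, changed by -1.90 (log2) and Dusp13 by -1.33. On scan day 1 alone 1 of these 4 was called, Dusp9, and under normexp correction Dusp11 (0.93) and Dusp13 (-0.84) were short of 2-fold. Of 7 scaffold genes Spag9 (JIP4) fell by 1.62, and of 7 tyrosine and serine phosphatases of MAP kinases Ppm1d (Wip1) fell by 1.45.

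Of 18 transcription factors and early genes that respond to ERK, 6 rose with LPS and none fell, beside 14% and 16.7% of all genes. Ier3 rose by 3.98 ± 0.076 (SE, log2; limma adjusted p = 3.77e-15), Fosl1 by 2.19 and Junb by 2.00. Ier2 (1.12) and Etv5 (1.06), named after their values were seen, fell short of 2-fold without LPS replicate c (0.92 and 0.95) or d (0.91 and 0.94). Under normexp correction Fosl1 (0.92), Ier2 (0.98) and Egr1 (0.94), also among the 6, were short of 2-fold. On scan day 1 alone 3 of the 18 rose, and on scan day 2 alone 8 rose and 1 fell.

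Egr1, a direct ERK target, split by scan day: its LPS ratios were -0.19 and 0.50 on day 1 and 2.87 and 2.90 on day 2, beside 0.20 to 0.30 on control arrays. Its LPS change was 1.28 ± 0.54 (SE, log2; limma adjusted p = 0.0427). That call was lost without any 1 of the control arrays (adjusted p from 0.0668 to 0.0735 by limma), and without LPS replicate c (0.83) or d (0.82), and in a fit of the 8 control and LPS arrays alone (limma adjusted p = 0.127). It was lost too without background subtraction (0.94, limma adjusted p = 0.0518).

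With HemeAlb200 Egr1 fell by 2.20 ± 0.54 (SE, log2; limma adjusted p = 0.00868), with ratios of -2.31 to -1.59. On HemeAlb50 arrays its ratios were -1.13 to -0.44, all below control, and the change of -1.05 had a limma adjusted p of 0.425 in the fit over all groups, and of 0.00239 in a fit of the 8 control and HemeAlb50 arrays alone. Fosl1, well above background on 2 of the 4 control arrays, rose with HemeAlb200 by 1.61 ± 0.34 (SE; limma adjusted p = 0.00346), with ratios of 0.80 and 0.69 on scan day 1 and 1.92 and 2.01 on scan day 2. Myc, named after its value was seen, rose by 1.03 with HemeAlb200 (limma adjusted p = 0.0304). Its call was lost without control replicates a, c or d or HemeAlb200 replicates c or d, with values from 0.77 to 1.05. Under normexp correction no one of Egr1 (-0.55), Fosl1 (0.32) or Myc (0.62) was called.

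Among 6 genes of AU-rich mRNA binding proteins, Zfp36 (tristetraprolin), which speeds the decay of cytokine mRNA, rose with LPS by 1.76 ± 0.089 (SE, log2). Its relatives Zfp36l1 and Zfp36l2 fell by 1.99 and 2.01. Zfp36l1 fell with HemeAlb200 too, by 1.33 ± 0.081 (SE; limma adjusted p = 3.19e-08), with ratios of -1.41 to -1.12 against -0.040 to 0.20 in control. HemeAlb50 ratios of Zfp36l1 were -0.45 to -0.24, between those groups without overlap.

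Of 8 glucocorticoid-responsive genes, 4 fell with LPS and none rose, beside 16.7% and 14% of all genes. The list was chosen because glucocorticoids induce Dusp1 in many cells. The 4 were Zbtb16 (-2.71), Tsc22d3 (-1.75), which encodes GILZ, Klf9 (-1.58) and Fkbp5 (-1.33), the last at -0.99 on scan day 2 alone. Zbtb16 also fell with HemeAlb200, by 1.53 ± 0.20 (SE, log2; limma adjusted p = 6.92e-05). Under normexp correction its HemeAlb200 change was -0.29 and not called.

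Of 53 genes in 8 marker lists of other cell types, 21 were tested, and 6 rose and 2 fell with LPS, while heme-albumin moved none of the 21 at either dose by limma. Over all genes 14% rose and 16.7% fell with LPS, and 3.03% and 0.368% were called with HemeAlb200 and HemeAlb50. The 6 were Ccr7 (6.44), Dcn (5.01), Camp (2.19), Cdh5 (2.10), Pecam1 (1.59) and S100a8 (1.56), and Cd79b and Vwf fell by 2.13 and 1.29. They were named after their values were seen. Ccr7, Dcn and Cdh5 were not well above background on all 16 arrays, so the sizes of their changes are uncertain. Summed red levels, in units of each array's 75th percentile, ran from 3.18 to 17.2 in control and 10.67 to 18.7 in LPS for the dendritic cell list. For the fibroblast list they were 0.036 to 0.071 and 0.24 to 0.32, and for the neutrophil list 4.69 to 7.39 and 5.32 to 9.90. The endothelial list went from 5.06 to 6.76 in control to 3.101 to 4.23 in LPS. No erythroid marker and no fibroblast marker was well above background on all 16 arrays. The part of these markers in the LPS changes of the phosphatases was not tested.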

How the data were processed

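Values are 2-colour Agilent 4x44K arrays. The authors' deposited LogRatio is log10 of red over green after linear and lowess dye normalisation by Agilent's Feature Extraction (version 10.7.3.1 in the submitters' processing notes), per the file headers, and was converted to log2. The deposited processed and median signals are intensity values, per the file headers. The deposited value table repeats the LogRatio (largest difference 0).

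Spots marked as controls or outliers were dropped. A probe passed where 1 group or more had it well above background in red on each of its 4 arrays. A gene was its brightest passing probe. limma 3.58.1 (R 4.3.3) fitted 1 mean per group over 16 arrays, with Benjamini-Hochberg adjustment over 12759 genes. Calls need an adjusted p under 0.05 and 2-fold. The fit was tested on simulated data. Normexp (offset 50), other filters, centring, scan day, replicate block and leaving out arrays were alternatives. Leaving out the arrays marked for evaluation and testing scan days against each other were added after seeing the data.

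The labels number replicates a to d in every group, and each slide holds 1 letter. Same-letter deviations correlated at 0.098 to 0.50, with every pair above 0.1 in all comparisons except LPS against control, where 3 of 4 pairs were. With the replicate as a block the Dusp2 change with LPS was 5.00 ± 0.21 (SE).

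The 10 genes and the lists were chosen with earlier results of these data known. Genes named beyond the 10 are up to 4 per list with the largest change among those called against control, and the 2 most correlated with each called member. The number of arrays limits the precision. Promoter letters are RefSeq's. Figures used Python 3.11.15 and matplotlib 3.10.9.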

Additional observations from a re-analysis of the deposited data

Results flagged for a closer look

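In 2 of 40 groups of 4 arrays, a phosphatase gene had an array set apart from the other 3 by more than Dixon's 95% critical value. About 1 in 20 groups would be marked so by chance. Dusp3 had a log2 ratio of -0.38 on HemeAlb200 replicate c, where the others were -0.14 to -0.11. Dusp8 had a log2 ratio of 0.52 on HemeAlb50 replicate c, where the others were 0.052 to 0.13.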

How the results depend on the processing

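With LPS, Dusp1, Dusp2, Dusp3 and Dusp16 kept their direction and call under all 22 alternatives. Of 1182 results for single phosphatase genes, 1152 kept their side of the threshold, 23 lost the call and 7 gained it. In 62 the sign turned, all of them among values not called, most often Dusp6 (9), Dusp7 (8) and Dusp8 (7) with LPS and Dusp1 (6) with HemeAlb200. The replicate block changed no call among the 9 genes in any comparison. The count of phosphatase genes called with HemeAlb200 was 0 on scan day 1 alone, with normexp, without background subtraction, among genes well above background on all 16 arrays (which leaves Dusp5 out) and without the 8 arrays marked for evaluation. On scan day 2 alone the count was 1, but the gene was Dusp4, higher. Leaving out 1 array gave 0 to 1. With HemeAlb50 it was 0 on either scan day, for red signals on their own, with normexp, with raw signals not background-subtracted, with no filter, with the strict filter, with unmoderated spread and without the arrays marked for evaluation, and 0 to 1 on leaving out 1 array. Over all genes HemeAlb200 called 386, but 151 with normexp, 229 without background subtraction and 134 without the marked arrays. HemeAlb50 called 47 (37 higher, 10 lower), but 19, 29 and 1 in that order, and 34 higher with 4 lower from the red channel alone. HemeAlb200 against HemeAlb50 called 106, but 31, 70 and 31. The arrays kept without the 8 marked ones hold 1 control, whose spread is taken to be that of the other groups. Elsewhere the cause was not tested. Dim probes limit Dusp5, Dusp14, both probes of Dusp8 and the second probe of Dusp16.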
